A study of Mus musculus with 10 samples.

Results

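Sepp1, 5 glutathione peroxidases (Gpx1, Gpx3, Gpx4, Gpx7 and Gpx8) and 2 thioredoxin reductases (Txnrd1 and Txnrd2) were described here, 8 of the 50600 genes counted in each library. They were chosen by gene name as families of the antioxidant defence, with their TPM and expected counts in these libraries already known, so their differences are given as a description and without p-values. TPM gives the level of a gene relative to all transcripts of its library after correction for transcript length, so levels of different genes can be compared.

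RNA-seq followed the first week of reprogramming of mouse embryonic fibroblasts (MEFs) from E13.5 embryos of a CBA/CaJ X C57BL/6J cross, which according to the methods of the study carry an Oct4-GFP reporter. In both arms, retrovirus from PlatE cells brought in Oct4, Klf4 and Sox2 (OKS), and the cells were then kept in iCD1 medium. One arm also received the transcription factor FoxO6 (OKS + FoxO6), and the other the fluorescent protein DsRed as control (OKS + DsRed). Each arm gave 1 library at each of days 0, 1, 3, 5 and 7, 10 libraries in all, and the labels name no separate cultures, so the libraries of an arm may share one infected culture. The arms were compared to learn how FoxO6, which the study examined as a factor that hinders reprogramming, alters expression along the course.

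Library totals ranged from 1208379 to 2225750 expected counts (median 1601151). Foxo6 itself checked the labels: its TPM was at most 2.29, from at most 4 reads, in each OKS + DsRed library and between 762.11 and 1356 in the OKS + FoxO6 libraries, day 0 included. The 6 fibroblast markers (Col1a1, Col1a2, Col3a1, Vim, Thy1 and Pdgfrb) were all detected in every library. All 6 were lower at day 7 than at day 0 in the 2 arms jointly (edgeR, adjusted p from 6.8e-06 to 0.035), of which DESeq2 did not call Col1a2 (adjusted p = 0.10), and their summed TPM ranged from 2246 to 7360 among the OKS + DsRed libraries and from 2454 to 6181 among the OKS + FoxO6 libraries. Between the arms 1 of the 6 was called, Col3a1, lower in OKS + FoxO6 (log2 shift -0.63, edgeR adjusted p = 0.020), a call that was lost without day 1, 3 or 5. In bulk RNA, fewer cells of a type and less RNA per cell cannot be told apart.

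Selenoproteins carry selenocysteine, an amino acid that is inserted at a UGA codon, otherwise a stop signal, with the help of a hairpin in the 3′ untranslated region of the mRNA. Sepp1, or selenoprotein P, is secreted and supplies selenium to other tissues, and liver is its best known source. Glutathione peroxidases reduce peroxides at the expense of glutathione, and thioredoxin reductases keep thioredoxins reduced with electrons from NADPH. FoxO factors are known as regulators of stress resistance genes.

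The codon that defines each gene is shown first, because it separates the selenoenzymes of the group from the pair that use cysteine. Each line gives coding sequence of a GENCODE M21 transcript (GRCm38), 5′ to 3′ on the strand of the gene, with the TGA of selenocysteine in capitals, or in Gpx7 and Gpx8 the cysteine codon that aligned with it when the translated sequence was aligned with that of Gpx1.
Sepp1, first selenocysteine codon, chr15:3274848-3274850: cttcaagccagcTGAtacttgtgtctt
Sepp1, end of the coding sequence, first TGA at chr15:3279663-3279665: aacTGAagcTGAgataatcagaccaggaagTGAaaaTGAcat
Gpx1, chr9:108339451-108339453: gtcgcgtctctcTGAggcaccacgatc
Gpx3, chr11:54907256-54907258: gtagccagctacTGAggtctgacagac
Gpx4, chr10:80054737-80054739: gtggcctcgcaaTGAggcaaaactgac
Gpx7, minus strand, chr4:108403430-108403432: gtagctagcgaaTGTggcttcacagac
Gpx8, minus strand, chr13:113045661-113045663: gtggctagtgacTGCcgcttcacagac
Txnrd1, chr10:82896037-82896039: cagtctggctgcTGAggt
Txnrd2, chr16:18477772-18477774: gtgactggttgcTGAggc

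Sepp1 holds 10 selenocysteine codons and the other 5 selenoprotein genes 1 each. In Sepp1 the first is codon 59 of 380, in exon 2 of 5, and 4 more stand within the 42 bases shown from its last exon. For Gpx1, Gpx3 and Gpx4 the codon lies in the first part or the middle of the coding sequence (codon 47 of 201, 73 of 226 and 129 of 253), whereas in Txnrd1 and Txnrd2 it is the codon before the last (498 of 499 and 526 of 527). Gpx7 and Gpx8 hold TGT (codon 56 of 186) and TGC (codon 79 of 209) at the aligned place. Among the translated peroxidases, the pair Gpx1 and Gpx3 (54.4% of 195 aligned residues) and the pair Gpx7 and Gpx8 (51.1% of 186) were the most alike, Gpx1 and Gpx4 the least (32.3% of 192). Txnrd1 and Txnrd2 shared 57.6% of 495 aligned residues. Codon numbers and shares are those of 1 transcript per gene. Gpx4, shown by a transcript of 253 codons, has 7 transcripts in the authors' annotation, and the others were not aligned.

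Sepp1 (ENSMUSG00000064373) lies on the plus strand of chromosome 15 from 3268547 to 3280508. The OKS + DsRed libraries of days 0, 1, 3, 5 and 7 held 51.7, 45.0, 139, 167 and 111 TPM of Sepp1, from 54, 59, 183, 210 and 184 reads. The OKS + FoxO6 libraries of the same days held 327, 958, 2158, 2432 and 1949 TPM, from 602, 1357, 3686, 4300 and 3142 reads. Every OKS + FoxO6 library was above every OKS + DsRed library, and in both arms the highest level was at day 5.

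Scaled to library size (CPM, read counts over TMM-normalised totals), Sepp1 was 5.93-fold higher in OKS + FoxO6 at day 0, with an exact 95% interval of 4.48 to 7.98 that covers counting error only. The ratio was 20.9 (16.1 to 27.6) at day 1 and 14.9 (12.9 to 17.4) at day 3. It was 13.4 (11.7 to 15.5) at day 5 and 20.4 (17.6 to 23.8) at day 7. The ratio was lowest in the pair of day 0, and how long after infection day 0 was sampled is not given in the sources used here. With 1 library per arm and day, none of these intervals covers the spread between cultures, and without molecular identifiers duplicate reads may make them too narrow even for counting error.

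Among all genes of a library, Sepp1 ranked 3469th, 4255th, 1210th, 951st and 1497th by TPM over the days in OKS + DsRed. In OKS + FoxO6 it ranked 449th at day 0, 124th at day 1, 29th at day 3, 25th at day 5 and 47th at day 7. Its level at day 7 was 2.16 times that at day 0 in OKS + DsRed and 5.96 times in OKS + FoxO6. The shift shared by the 5 days, fitted to the counts of all 10 libraries with edgeR and day as a factor, was 3.82 ± 0.24 on the log2 scale (SE), rank 16 of the 12212 genes fitted. The median over all those genes was -0.02.

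**Figure D1:**
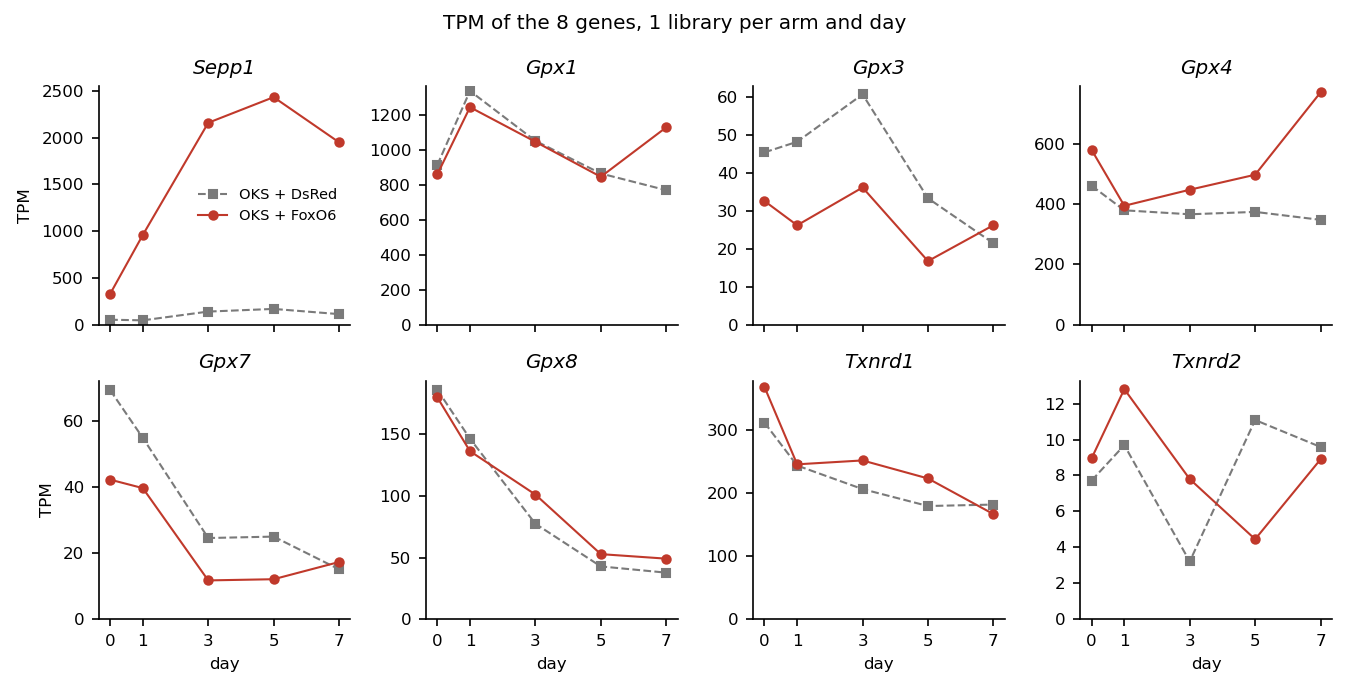
TPM (vertical axis, from 0, a scale of its own in each panel) of the 8 genes against the day, with 1 library per point, grey squares for OKS + DsRed and red circles for OKS + FoxO6. Sepp1 separates the arms on all 5 days (45.0 to 167 against 327 to 2432), while the arms of Gpx1, Gpx8 and Txnrd1 overlap.

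The 5 genes whose course over the 10 libraries was most like that of Sepp1, by Pearson's r in log2(TPM + 1) among 9848 other genes averaging 10 TPM or more, were Vegfd (0.98), a growth factor for lymphatic vessels, Limk2 (0.98), a kinase of the actin cytoskeleton, Psd4 (0.97), Arfgap3 (0.97), which acts on Arf GTPases, and Slc4a11 (0.97), a membrane transporter. Over the 5 days Vegfd stood at 10.1, 7.31, 15.2, 11.8 and 9.45 TPM in the control arm and at 33.4, 54.7, 113, 89.7 and 82.6 TPM with FoxO6. Slc4a11 was between 8.26 and 28.4 in OKS + DsRed and between 27.5 and 225 in OKS + FoxO6. The 10 points share the 2 arms and the 5 days. Of the members averaging 10 TPM or more, Gpx4 had the highest r with Sepp1 (0.55) and Gpx7 the lowest (-0.67).

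Sepp1 is also made by macrophages, hepatocytes and endothelium, whose markers were examined beside it. Of 10 macrophage markers, 7 had at most 3 reads in every library, the defining Csf1r at most 2.49, Adgre1 at most 2 and C1qa and C1qb at most 1. Their summed TPM was between 17.8 and 60.4 in OKS + DsRed and between 19.7 and 32.8 in OKS + FoxO6, led by Cd68. Of 7 hepatocyte markers, Apoa1, Ttr and Afp were at 0 reads in all 10 libraries and Fgb at most 1. Alb was at 0 TPM on day 0 in both arms and on day 7 at 8.86 TPM in OKS + DsRed and 11.77 TPM in OKS + FoxO6, from at most 17 reads (edgeR adjusted p = 0.016 for the change in both arms together). Apoa2 was also at 0 on day 0 in both arms and on day 7 at 7.79 and 30.02 TPM, from at most 11 reads. The sum ranged from 2.19 to 78.9 in OKS + DsRed and from 0.64 to 154 in OKS + FoxO6, led by Ahsg, which went from 2.19 TPM on day 0 to 53.9 TPM on day 7 in OKS + DsRed and from 0.64 to 112 TPM in OKS + FoxO6. Of 6 endothelial markers, Emcn had at most 1 read and Cdh5 at most 4, and Tek made up most of a sum of 21.3 to 58.6 in OKS + DsRed and of 31.4 to 104 in OKS + FoxO6. Pecam1, Vwf and Cldn5 were low and were highest in the OKS + DsRed library of day 7, at 5.73, 3.28 and 2.28 TPM against 0.76, 0.43 and 0 TPM in OKS + FoxO6 on that day, from at most 18 reads. Tek, the angiopoietin receptor, was higher in OKS + FoxO6 on 5 of 5 days (log2 shift 0.96 ± 0.13, edgeR adjusted p = 0.0012), and the part of Tek-expressing cells in the difference of Sepp1 was not tested.

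At its 3′ end Sepp1 shares 439 exon bases with Ccdc152 on the opposite strand, and use of strand in counting is not given in the sources used here. Ccdc152 had 3 reads in one OKS + DsRed library and 0 in all others. The effective length of Sepp1, an average over its transcripts that sets its TPM, was between 1619 and 1835 bases over its 7 transcripts in the authors' annotation.

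RefSeq promoter windows (GRCm38.p6, from 250 bases before to 50 after a start) were found for all 8 genes, 15 windows in all, and were searched on both strands for 3 motifs: GTAAACA and CAAAACA, which FoxO factors bind, and TGACNNNGC, the core of the antioxidant response element. The shares of all 32851 windows with a match were 3.65%, 6.28% and 12.4%. GTAAACA was found once, on the plus strand 24 bases before the start of 1 of 3 windows of Sepp1, at chr15:3270953-3270959, in sequence that M21 also annotates as exon of a Sepp1 transcript that starts farther upstream. TGACNNNGC was found once, read on the minus strand, 92 bases before the start in 1 of 3 windows of Txnrd1, at chr10:82859114-82859122. Both sites are shown with the match in capitals, because they are the sole matches in the 15 windows.
Sepp1, GTAAACA: agagggcgagGTAAACAacagggctat
Txnrd1, TGACNNNGC on the other strand: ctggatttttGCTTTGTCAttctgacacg
A match is a description of the letters and not a binding site, and no binding was measured here.

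Gpx1 (ENSMUSG00000063856, chromosome 9, 108338903 to 108340343, plus strand) is the selenium-dependent peroxidase of the cytosol. Over the 5 days its TPM was 914, 1338, 1052, 865 and 769.61 in the control arm. With FoxO6 the values were 859.55, 1245, 1047, 846 and 1129. It was the most abundant peroxidase by TPM in all 10 libraries, and the arms overlapped. Both arms were highest at day 1 in TPM, whereas in CPM the OKS + FoxO6 library of day 7 (469 CPM) was above that of day 1 (426 CPM).

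The CPM ratio of Gpx1 was 0.877 (0.775 to 0.992) on day 0 and 0.880 (0.792 to 0.977) on day 1, both intervals below 1. It was 0.973 (0.871 to 1.09) on day 3 and 0.930 (0.822 to 1.05) on day 5, and 1.68 (1.5 to 1.88) at day 7. The fitted shift over the days was 0.04 ± 0.15, and -0.13 ± 0.10 without day 7. Genes of similar length, no more than 20% shorter or 25% longer, had a median difference in log2(TPM + 1) of 0.20 at day 7, against 0.55 for Gpx1. This length comparison was chosen after seeing the data.

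Gpx3 (ENSMUSG00000018339, chromosome 11, 54902453 to 54910377, plus strand) is the secreted selenium peroxidase of plasma. The control libraries, in order of days, held 45.45, 48.25, 60.8, 33.3 and 21.5 TPM of it. Those with FoxO6 held 32.6, 26.2, 36.2, 16.75 and 26.2 TPM, from 26 to 55 reads. It was lower in OKS + FoxO6 on days 0, 1, 3 and 5 and higher on day 7, and the ranges overlapped.

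The CPM ratio of Gpx3 was lowest at day 5, at 0.487 (0.281 to 0.832), and its interval lay below 1 on 4 of 5 days. At day 7 it was 1.35 (0.813 to 2.24), an interval that includes 1. The fitted shift was -0.59 ± 0.22, and -0.82 ± 0.18 without day 7.

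Gpx4 (ENSMUSG00000075706, chromosome 10, 80047166 to 80056439, plus strand) reduces lipid hydroperoxides in membranes and protects cells from ferroptosis. From day 0 to day 7 the 5 OKS + DsRed libraries gave 460.36, 379, 366, 374 and 347 TPM. The 5 OKS + FoxO6 libraries gave 579, 394, 447, 497 and 770.03 TPM. It was higher in OKS + FoxO6 on each of the 5 days, although the ranges of the arms overlapped.

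The CPM ratio of Gpx4 was 1.05 (0.897 to 1.22) on day 0 and 1.08 (0.893 to 1.30) on day 1. It was 1.20 (1.01 to 1.43) on day 3 and 1.2477 (1.05 to 1.48) on day 5. On day 7 it was 2.35 (2.03 to 2.74), above the interval of every other day. The fitted shift was 0.40 ± 0.17 with day 7 and 0.19 ± 0.11 without it. The difference in log2(TPM + 1) at day 7 was 1.15, and 0.94 once the median of genes of similar length (0.21) was taken off. The pseudogene Gpx4-ps2 held at most 1.7 expected counts in a library.

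Gpx7 (ENSMUSG00000028597, chromosome 4, 108400390 to 108406961, minus strand) is a peroxidase of the endoplasmic reticulum that uses cysteine. Along the control course it stood at 69.3, 54.85, 24.5, 24.97 and 15.1 TPM. Along the FoxO6 course it stood at 42.2, 39.65, 11.7, 12.1 and 17.3 TPM, from 14 to 57 reads. Both arms were highest at day 0, and OKS + FoxO6 was lower on days 0 to 5 and slightly higher on day 7.

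The CPM ratio of Gpx7 was 0.551 (0.374 to 0.813) on day 0, 0.472 (0.223 to 0.964) on day 3 and 0.468 (0.225 to 0.953) on day 5, and the intervals of days 1 and 7 included 1. Its fitted shift was -0.64 ± 0.24, and -0.83 ± 0.22 without day 7. The fitted change from day 0 to day 7 in both arms was -1.71 ± 0.38.

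Gpx8 (ENSMUSG00000021760, chromosome 13, 113042753 to 113046410, minus strand) is the second cysteine peroxidase of the endoplasmic reticulum, anchored in its membrane. Control libraries of days 0 to 7 held 186, 147, 77.45, 42.8 and 37.7 TPM, and those with FoxO6 180.22, 136, 101, 52.8 and 49.1 TPM. In TPM the level was lower at each later day than at the day before in both arms, and the arms overlapped. In CPM this did not hold for OKS + FoxO6 from day 5 (24.3 CPM) to day 7 (27.0 CPM).

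The level of Gpx8 at day 0 was 4.94 times that at day 7 in OKS + DsRed and 3.67 times in OKS + FoxO6, and the fitted change was -2.05 ± 0.25 (day 7 minus day 0). The intervals of its CPM ratio between the arms included 1 on all 5 days, and the fitted shift was 0.12 ± 0.16. The largest change that the day 7 interval still allows is 2.32-fold higher in OKS + FoxO6, so a moderate difference was not detectable from 35 and 42 reads.

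**Figure D2:**
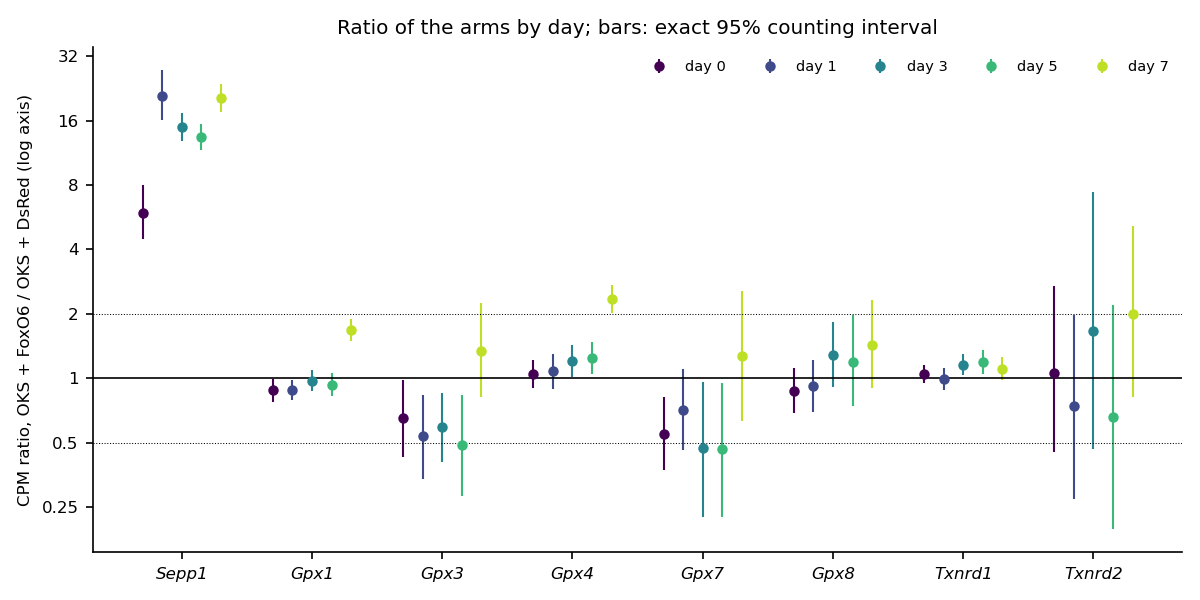
Ratio of CPM in OKS + FoxO6 to that in OKS + DsRed on the same day (vertical log axis) for each gene, coloured by day, with exact 95% counting intervals as bars and dotted lines at 2-fold. Sepp1 stands between 5.93 and 20.9, Gpx4 reaches 2.35 at day 7, and the wide bars of Txnrd2 rest on 4 to 18 reads.

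Taken as a family, the 8 Gpx genes summed to between 1325 and 1969 TPM in OKS + DsRed and between 1441 and 2066 TPM in OKS + FoxO6. Gpx1 made up 50.7% to 68.0% of that sum and Gpx4 19.2% to 37.3%, with the highest share of Gpx4 in OKS + FoxO6 at day 7. Gpx8 went from 11.1% at its highest to 2.38% at its lowest, and Gpx7 stayed between 0.712% and 4.14%. Gpx2, the gut-type selenium peroxidase and no member of the group, had 0 reads in both libraries of day 0. On days 1, 3, 5 and 7 it stood at 1.31, 10.9, 56.6 and 134 TPM with DsRed, against 0, 1.02, 15.7 and 74.4 TPM with FoxO6. Set against a floor of 3 reads per library on day 0, the CPM on day 7 was at least 26.7-fold higher in OKS + DsRed and at least 30.8-fold higher in OKS + FoxO6. Gpx5 was at 0 in all 10 libraries and Gpx6 had at most 1 read.

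**Figure D3:**
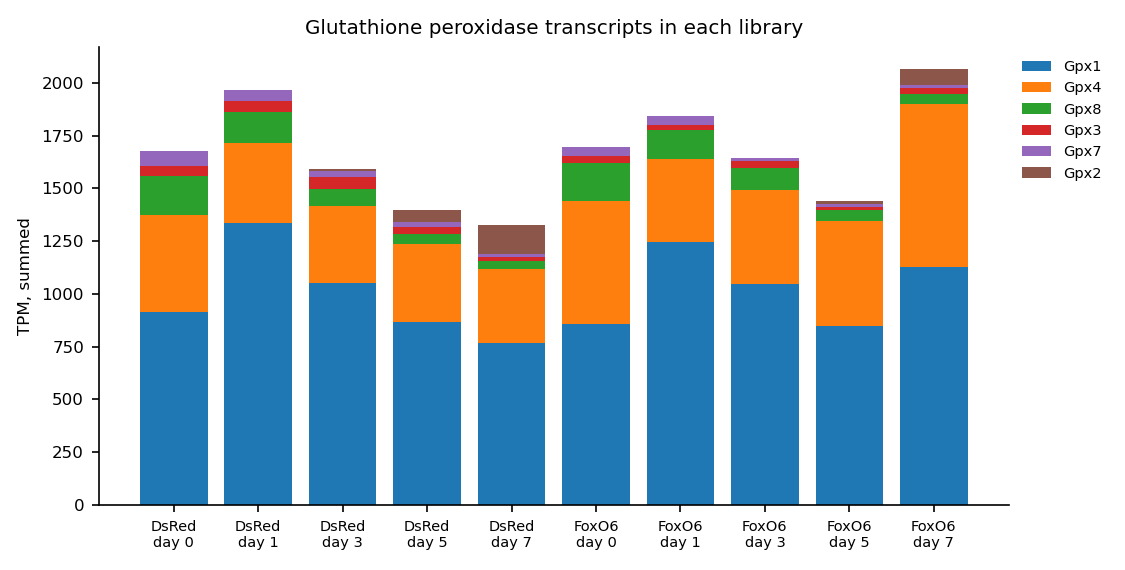
Summed TPM (vertical axis) of the glutathione peroxidase genes in each of the 10 libraries, stacked by gene. Gpx1 and Gpx4 make up most of each bar, Gpx8 and Gpx7 are thinner at later days, and Gpx2 is visible from day 5, most in OKS + DsRed at day 7 (10.1%).

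Txnrd1 (ENSMUSG00000020250, chromosome 10, 82833951 to 82897712, plus strand) is the thioredoxin reductase of the cytosol. Levels along the control course were 311, 243, 206, 179 and 181 TPM. Levels along the FoxO6 course were 368, 245, 251, 223 and 166 TPM, from 494 to 1228 reads. Day 0 was the highest library in both arms, and the arms overlapped.

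The CPM ratio of Txnrd1 was 1.16 (1.03 to 1.30) at day 3 and 1.19 (1.04 to 1.35) at day 5, and the other intervals included 1. The direction at day 7 depended on the scale, with a ratio of 0.917 in TPM and of 1.11 (0.980 to 1.26) in CPM. Genes of similar length had a median difference in log2(TPM + 1) of -0.18 at day 7, against -0.12 for Txnrd1. The median gene differed between the arms by 0.11 at day 0 and -0.10 at day 7 in log2(TPM + 1), and by -0.01 and 0.03 in log2 CPM. The fitted shift was 0.13 ± 0.10 and the fitted change from day 0 to day 7 was -0.90 ± 0.17, in both arms together.

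Txnrd2 (ENSMUSG00000075704, chromosome 16, 18426384 to 18479073, plus strand) is the thioredoxin reductase of mitochondria. Control libraries held 7.72, 9.69, 3.21, 11.1 and 9.59 TPM over the days, from 4 to 11 reads. FoxO6 libraries held 8.96, 12.8, 7.8, 4.45 and 8.9 TPM, from 7 to 18 reads. All 5 intervals of its CPM ratio included 1, the widest from 0.465 to 7.41 at day 3, so no difference of this gene was detectable at this depth.

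The effective length of Txnrd2 moved between 854 and 1882 bases, as its 16 annotated transcripts were weighted anew in each library, and the direction of its difference at days 1 and 7 was opposite in TPM and CPM. Txnrd3, the testis-type reductase outside the group, was between 3.2 and 12.8 TPM. Eid3 (at most 7 reads) lies within Txnrd1 and shares no exon bases with it.

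Ordered by their median over the 5 days, the TPM levels in OKS + DsRed were Gpx1 (914), Gpx4 (374), Txnrd1 (206), Sepp1 (111), Gpx8 (77.45), Gpx3 (45.45), Gpx7 (24.97) and Txnrd2 (9.59). Here the ranges over the days overlapped between the neighbours Sepp1 and Gpx8, Gpx8 and Gpx3, and Gpx3 and Gpx7. In OKS + FoxO6 the order was Sepp1 (1949), Gpx1 (1047), Gpx4 (497), Txnrd1 (245), Gpx8 (101), Gpx3 (26.2), Gpx7 (17.3) and Txnrd2 (8.9). The ranges of Sepp1 and Gpx1, Txnrd1 and Gpx8, Gpx3 and Gpx7, and Gpx7 and Txnrd2 overlapped. Apart from Sepp1, which went from the fourth to the first place, the order of the members was the same in both arms.

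Of the 40 pairs of a member and a day, 7 were past 2-fold higher in OKS + FoxO6 on the scale of log2(TPM + 1), beside 5.65% of the 49245 such pairs of all genes averaging 10 TPM or more. They were the 5 days of Sepp1, Gpx4 at day 7 and Txnrd2 at day 3. Past 2-fold lower were 2 pairs, Gpx7 at day 3 and Txnrd2 at day 5, beside 6.33% of all pairs. Txnrd2 averaged 8.42 TPM and so is not among the genes of that background. Without it, 6 of 35 pairs were past 2-fold higher and 1 lower. By the ratio of CPM, 6 pairs were past 2-fold higher and 3 lower, namely Gpx3 on day 5 and Gpx7 on days 3 and 5, and with a prior count of 2 added to the counts 6 were higher and 0 lower.

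**Figure D4:**
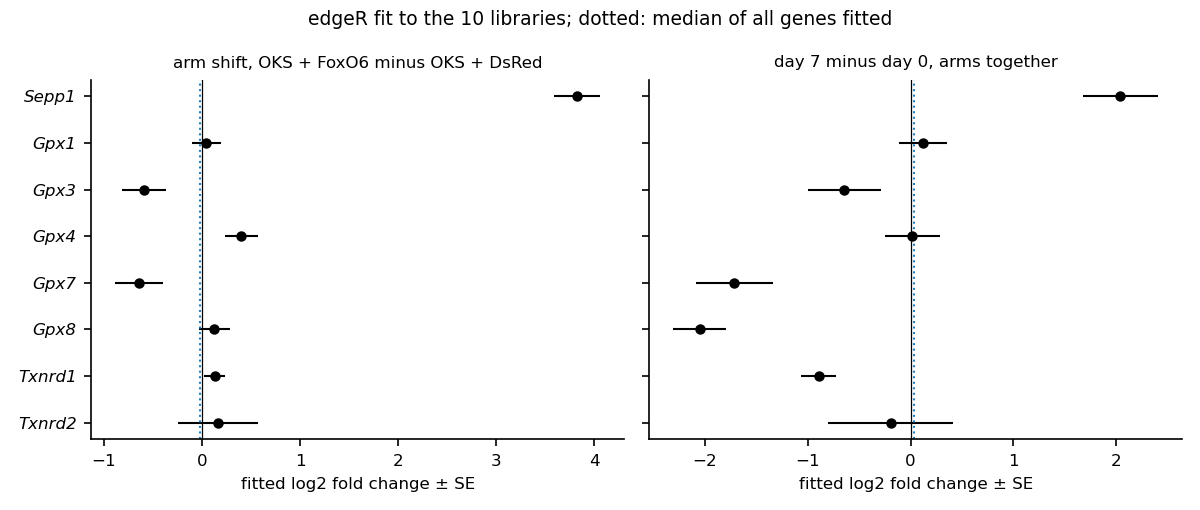
Fitted log2 fold change (horizontal axis, points, with bars for ± 1 SE) of the 8 genes between the arms (left) and from day 0 to day 7 (right), from 1 edgeR fit to the 10 libraries. Dotted lines mark the median of all genes fitted, and Sepp1 stands at 3.82 on the left while Gpx8 (-2.05), Gpx7 (-1.71) and Txnrd1 (-0.90) stand below 0 on the right.

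The levels of Gpx7, Gpx8 and Txnrd1 were lower at day 7 than at day 0 in each arm, as were those of the 6 fibroblast markers named above, and the part of the fibroblast share in them was not tested. Sepp1 went the other way, with a fitted change of 2.04 ± 0.36. The values of Gpx1 (0.12 ± 0.23), Gpx4 (0.02 ± 0.26) and Txnrd2 (-0.19 ± 0.60) were within their SE of 0, and that of Gpx3 was -0.64 ± 0.36. For Gpx1 and Gpx4 these averages joined opposite directions, since day 7 was below day 0 in OKS + DsRed and above it in OKS + FoxO6 (0.842 against 1.31 times in TPM for Gpx1 and 0.754 against 1.33 times for Gpx4).

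The rest of the pathway was read from lists of 84 genes, 79 of which had enough reads for the fit. In the shift between the arms, 11 of them were called higher in OKS + FoxO6 and 4 lower (edgeR's quasi-likelihood test, Benjamini-Hochberg adjusted p under 0.05), beside 6.63% of all 12212 genes called higher and 6.89% lower. The libraries of an arm may be one culture, so these p-values measure the spread between these libraries.

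Among 17 other selenoproteins fitted, none was called higher and 3 were lower in OKS + FoxO6, and the median of the list was 0.03. The 3 were Dio3, Dio2 and Gpx2, with the deiodinases Dio2 and Dio3 known for activating and inactivating thyroid hormone. Dio3 stood at 0, 2.01, 16.7, 77.0 and 107 TPM over the days with DsRed and at 0, 0, 1.48, 5.69 and 8.85 TPM with FoxO6 (log2 shift -3.84 ± 0.31, edgeR adjusted p = 8.6e-05). Dio2 (-2.90 ± 0.44, edgeR adjusted p = 0.0024) kept its call in the 3 fits without day 0, 1 or 3. Its reads did not pass the filter for the fits without day 5 or day 7. Dio2 had at most 9 reads in an OKS + FoxO6 library and at most 93 in OKS + DsRed. With a filter set at 10 reads in a library of median size, it entered the fit only through OKS + DsRed libraries. Its call is thus a description of a gene kept for its level in the control arm. The call of Gpx2 (-1.38 ± 0.39, edgeR adjusted p = 0.041) was lost without any 1 of days 1, 3, 5 and 7. The remaining 14, which include the reductase Txnrd3 and the selenoproteins of the endoplasmic reticulum, did not pass the test.

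Of 10 genes for selenium handling and selenocysteine insertion, 1 was called higher, Secisbp2l, a relative of the protein that binds the selenocysteine insertion element (0.75 ± 0.19, edgeR adjusted p = 0.024, lost without day 0, 3 or 5). The receptors that take up Sepp1, Lrp8 (apolipoprotein E receptor 2) and Lrp2 (megalin), were not called between the arms. Both were lower at day 7 than at day 0. Lrp8 had a TPM of 61.7 and 62.25 at day 0 and of 34.1 and 19.5 at day 7 in OKS + DsRed and OKS + FoxO6 (-1.09 ± 0.21, edgeR adjusted p = 0.0040). Lrp2 was between 6.77 and 8.85 TPM at day 0 and at most 1.41 TPM on all later days (-4.04 ± 0.49, edgeR adjusted p = 0.00021).

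In the glutathione list (19 fitted) 3 genes were called higher in OKS + FoxO6 and none lower. Mgst1, a membrane-bound glutathione transferase, was 0.95 ± 0.12 higher on the log2 scale (edgeR adjusted p = 0.00057) and kept its call with each day left out. The calls of Slc3a2, a subunit of the cystine transporter (0.40 ± 0.11), and of the glutaredoxin Glrx (0.85 ± 0.25) were each lost in 4 of 5 such fits, and DESeq2 called neither (adjusted p = 0.091 and 0.18).

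Of 15 thioredoxins and peroxiredoxins, the peroxiredoxins Prdx5 (0.47 ± 0.12) and Prdx6 (0.54 ± 0.15) were called higher, and neither kept its call in more than 1 of the 5 fits with a day left out. DESeq2 did not call Prdx5 (adjusted p = 0.12). Nucleoredoxin, Nxn, was lower in OKS + FoxO6 on 5 of 5 days, between 39.4 and 73.0 TPM against 73.2 to 164 TPM, and kept its call in each of those fits (-1.31 ± 0.14, edgeR adjusted p = 0.00027).

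Of 18 factors and targets of NRF2, the regulator of the antioxidant response, 5 were called higher in OKS + FoxO6 and none lower, with a list median of 0.36 against -0.02 over all genes fitted. Heme oxygenase Hmox1 was 0.86 ± 0.13 higher (edgeR adjusted p = 0.0021), with a TPM of 85.0 to 139 in OKS + DsRed and of 153 to 239.9 in OKS + FoxO6. The exporter Abcc1 (0.75 ± 0.12), the small Maf factor Mafk (0.94 ± 0.17) and the first enzyme of the pentose phosphate pathway, G6pdx (0.57 ± 0.12), were also called, and Blvrb (0.85 ± 0.19) was the fifth. Hmox1, Abcc1 and Mafk kept the call with each day left out, G6pdx lost it without day 3 and Blvrb without day 1 or day 3. The other 13 were not called. Of these, Tkt (-0.35 ± 0.12), Nqo1 (-0.33 ± 0.22), Keap1 (-0.13 ± 0.15) and Taldo1 (-0.08 ± 0.13) were below 0. Txnrd1, which is known as a target of NRF2, had the 0.13 ± 0.10 given above.

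From day 0 to day 7, 11 of the 79 listed genes were called higher and 18 lower, beside 11.7% of all genes called higher and 10.1% lower. The list of other selenoproteins went both ways, with Dio3, Gpx2, Dio2 and Sepw1 (0.90 ± 0.23) higher and Sepn1 (-1.12 ± 0.26), Txnrd3 (-1.72 ± 0.47) and Selm (-1.10 ± 0.33) lower. DESeq2 did not call Txnrd3 (adjusted p = 0.081) or Selm (adjusted p = 0.091), and Selm also lost its call without day 1. Dio2 kept its call without day 1 or day 3 and was not fitted without day 5. The day 0 libraries had 0 reads of Gpx2 and of Dio3, so their fitted values are no measure of size. Thioredoxins and peroxiredoxins had 3 genes higher, Sesn2, Nxn and Txnip, which binds and inhibits thioredoxin (1.49 ± 0.31), and 6 lower, led by Prdx4 of the endoplasmic reticulum (-2.42 ± 0.24, edgeR adjusted p = 6.0e-05), Srxn1, which repairs peroxiredoxins (-1.93 ± 0.25), and Prdx5 (-0.96 ± 0.19). Txn1, the substrate of Txnrd1, was lower as well (-0.87 ± 0.22, edgeR adjusted p = 0.016). Of the others, Txnl1 lost its call without day 1 or day 3, and DESeq2 did not call it (adjusted p = 0.0998).

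The glutathione list had 4 genes higher at day 7, all of them transferases (Mgst1, Gstm1, Gsto1 and Gsta4, from 0.73 to 1.55 on the log2 scale, with the call of Gsta4 lost without day 3), and 1 lower, Gclm, the modifier subunit of the enzyme that starts glutathione synthesis (-1.07 ± 0.24). Of the NRF2 list, 6 were lower and none higher, with Me1 (-1.10 ± 0.22), Blvrb (-0.97 ± 0.28), Tkt (-0.68 ± 0.19) and Fth1 (-0.58 ± 0.17) among them, and Fth1 lost its call in each of the 3 fits with a middle day left out. DESeq2 did not call Blvrb (adjusted p = 0.14). The other 2, Pgd and Bach1, lost their calls in 3 and 2 of those fits, and DESeq2 did not call Bach1 (adjusted p = 0.108). The list median was -0.51 against 0.03 over all genes fitted.

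**Figure D5:**
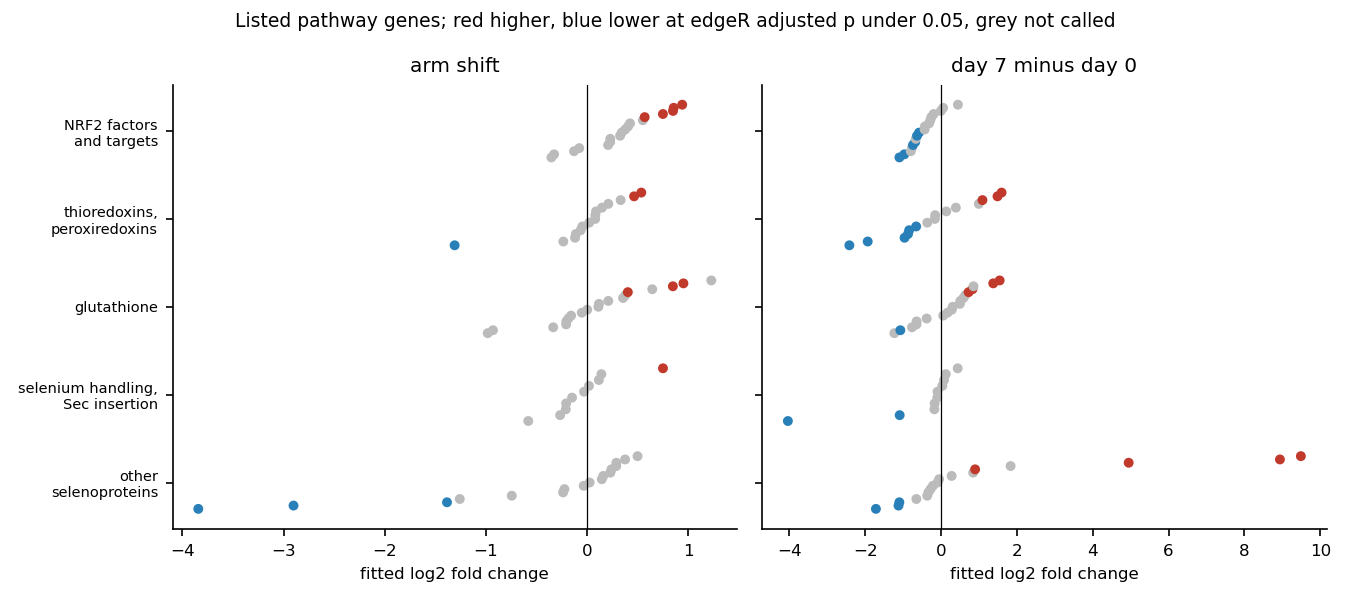
Fitted log2 fold change (horizontal axis) of each listed gene with enough reads, 1 point per gene, between the arms (left) and from day 0 to day 7 (right), with red for called higher, blue for called lower and grey for not called. On the left 5 of 18 NRF2 genes are red and the 3 blue selenoproteins are Dio3, Dio2 and Gpx2. On the right the points of Gpx2 and Dio3 beyond 8 rest on 0 reads at day 0.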

How the data were processed

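Bulk RNA-seq libraries of the 2 arms and 5 days were grouped by their labels. RSEM with Bowtie2 was run by the authors on the GENCODE M13 transcripts (mm10), and the deposited expected counts are RSEM estimates per gene without normalization. TPM per gene was computed by the authors from the same alignments. Versions are not given in the sources used here. The methods name a TruSeq kit and the labels a VAHTS mRNA-seq kit. A table of the whole series repeats the expected counts of 48476 genes and served only for gene names. One listed gene, Selenof, appears there as a date and was matched by its Ensembl ID, as was Selenov.

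The members and gene lists were chosen with earlier results of these data known. Expected counts were rounded and fitted with edgeR 4.0.16 in R 4.3.3 (TMM, filterByExpr, quasi-likelihood, arm and day as factors, 4 residual degrees of freedom). All 8 members passed the filter. SE is the fitted log2 fold change over the square root of the F statistic. Daily differences used log2(TPM + 1), a scale that understates changes of low genes, and CPM ratios with exact Clopper-Pearson 95% intervals of the count split (scipy 1.17.1). The fit was also run on simulated counts of independent libraries, with a constant change between the arms and no change over the days. The outcome is not reported here. Such a run cannot test the p-values for libraries that share a culture. Totals of 1208379 to 2225750 counts leave few reads for low genes. DESeq2 1.42.0, RLE size factors, no filter, no day term, each day left out, a pseudocount of 0.1, CPM and lower TPM minimums were alternatives.

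Named were the members, their families, part of the marker genes, pseudogenes, Foxo6 and the 5 genes most like Sepp1. Of each list, up to 4 called genes per direction were named by lowest adjusted p. Blvrb, Tkt, Nqo1, Keap1 and Taldo1 between the arms and Pgd, Bach1 and Txnl1 over time fall outside this rule. They were named after their values were seen. Gene models, selenocysteine codons and sequences are from GENCODE M21 (GRCm38), promoters from RefSeq. Some results are not reported here.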

Additional observations from a re-analysis of the deposited data

How the results depend on the processing

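With 1 library per arm and day, no value of a single day has a replicate check, and low genes such as Txnrd2 rest on few reads. The fitted changes of the members moved by no more than 1 SE under 115 of 119 alternatives. The other 4 were Sepp1 without day 0 (4.09) and Gpx1 (-0.13), Gpx3 (-0.82) and Gpx4 (0.19) without day 7, all for the shift between the arms. The sign turned for the shift of Gpx1 (-0.13 ± 0.10) and that of Txnrd2 (-0.08) without day 7 and the change of Gpx4 from day 0 to day 7 (-0.0032) without day 3. Txnrd2 could not be fitted without the day term, as it did not pass the filter there.

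Without the day term the 2 libraries of a day, 1 per arm, were no longer paired. The shift between the arms then called 125 genes higher and 44 lower in place of 810 and 841. Of the listed genes it called 2 higher and 1 lower in place of 11 and 4. Without the filter on low counts 7 listed genes were called lower. With 1 day left out, the calls over all genes lay between 370 (without day 5) and 837 higher and between 335 (without day 5) and 841 lower. Those of the listed genes lay between 4 (without day 3) and 11 higher and between 2 (without day 5) and 6 lower, and the listed calls higher also numbered 6 without day 1 and 6 without day 5. Without day 3 the calls over all genes were 400 higher and 373 lower. These fits hold 8 of the 10 libraries, and the cause was not tested further. Counts for the change from day 0 to day 7 stayed within 1.5 times under the alternatives run.

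Of the member and day pairs, 0 were past 2-fold lower by log2 CPM with a prior count of 2, 3 by the plain ratio of CPM (an alternative chosen after seeing the data), and between 1 and 2 with 1 day left out (1 without day 3 or day 5). After the length adjustment, which was chosen after seeing the data, 6 pairs were past 2-fold higher, without Gpx4 at day 7. At day 7 the median of genes of similar length was 0.16 for Gpx8, 0.11 for Gpx7 and 0.06 for Gpx3. Their own differences in log2(TPM + 1) were 0.37, 0.18 and 0.28. Among genes averaging 1 TPM or more, 9.09% of all pairs were past 2-fold higher and 11.1% lower.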
